A study of Mus musculus with 6 samples.

Results

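The odorant-binding lipocalins and urinary proteins of the mouse nose were followed here as 6 genes, Obp1a, Obp2a, Lcn3, Lcn4, Lcn11 and Mup5. Their probe sets were those whose symbol in the platform annotation was exactly 1 of these names. The rule found 7 probe sets, 1 for each gene and a second for Lcn4, out of 45037 probe sets that are not controls, and so 6 of 18193 named genes. All 6 genes lay above the filter on low signal, a mean signal of 61.1. RNA came from olfactory epithelium dissected from 6 male mice aged 6 months, and each mouse was hybridised to its own Affymetrix array. The 3 Harlequin mice (Hq/Y) carry the strain name B6CBACAw-J/A-Pdcd8-Hq/J, and the 3 wild-type males (+/Y) carry B6CBACa and are titled littermate controls. Harlequin is a hypomorphic mutation of the X-linked gene Aifm1, formerly Pdcd8, present in every cell of a hemizygous male. The strain name differs with the genotype, so strain background and mutation cannot be told apart. The study set out to relate gene expression to oxidative-stress neurodegeneration in this tissue.

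Lipocalins are small secreted proteins that fold into a barrel around a greasy pocket. In the nose, glands under the olfactory and respiratory epithelia and around the vomeronasal organ release them into mucus, where they bind odorants and pheromones. Major urinary proteins belong to the same fold and carry volatile pheromones in urine and other secretions.

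The labelled tissue and genotype were checked first. Aifm1 signal was 211.2 to 335.4 on the Harlequin arrays and 1128.2 to 1255.6 on the control arrays (limma adjusted p = 0.0158, a call not kept without an intensity trend, with a replicate block or without any 1 of the control arrays). Omp, the classical marker of mature olfactory neurons, read 15891.8 to 18821.7 on the 6 arrays, and Cyp2g1, an olfactory cytochrome P450 of sustentacular and gland cells, read 16585.7 to 18072.4. The deposited signals had been scaled to a trimmed mean of 500 on every array. Precision is limited by having only 3 arrays for each genotype.

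In the RefSeq table of assembly GRCm38.p6, the genes lie in 3 groups. Obp2a, Lcn3, Lcn11 and Lcn4 are on chromosome 2, Obp1a is on chromosome X with Aifm1, and Mup5 is on chromosome 4. Lcn3 and Lcn11 are neighbours with 0 protein-coding genes between them, whereas 23 lie between Lcn11 and Lcn4. The promoter table held 5 of the 6 genes. The 100 bases before the annotated start are shown because the signals of Lcn3 and Lcn4 had the highest correlation among these genes, so that their upstream sequences can be set side by side. All are written 5′ to 3′ on the strand of the gene, and capitals mark TATAAA or, where that is missing, ATAAA.
Lcn3, chr2:25765433-25765532, plus strand: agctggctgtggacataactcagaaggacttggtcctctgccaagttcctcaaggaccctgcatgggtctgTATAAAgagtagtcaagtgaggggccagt
Lcn4, chr2:26671283-26671382, minus strand: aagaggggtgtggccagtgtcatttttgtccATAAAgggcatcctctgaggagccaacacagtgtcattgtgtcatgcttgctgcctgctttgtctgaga
Obp2a, chr2:25699974-25700073, plus strand: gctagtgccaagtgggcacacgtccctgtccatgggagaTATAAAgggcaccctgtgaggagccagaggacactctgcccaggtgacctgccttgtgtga
Lcn11, chr2:25776917-25777016, plus strand: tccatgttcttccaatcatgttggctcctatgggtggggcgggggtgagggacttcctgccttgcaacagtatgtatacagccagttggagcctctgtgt
Obp1a, chrX:78091375-78091474, minus strand: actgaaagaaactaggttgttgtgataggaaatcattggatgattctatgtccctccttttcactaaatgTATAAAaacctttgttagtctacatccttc

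TATAAA stood on the gene strand in 3 of these 5 windows, against 3.8% of all 32851 promoter windows of this length, and on either strand in 3 of 5 against 5.56%. ATAAA, which every TATAAA contains, stood on the gene strand in 4 of 5 against 11%, and on either strand in 4 of 5 against 17.5%. Of the 10 pairs of windows, the pair with the highest identity was Lcn4 and Obp2a, at 58.3% of aligned positions, and it held the longest shared run, the 10 bases ataaagggca. Lcn3 and Lcn4 were 48.3% identical with a longest shared run of 7 bases. The other pairs lay between 43.1% and 50%. These are matches of letters only.

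The first question was whether the odorant-binding genes differed between the genotypes. None of the 6 genes passed the limma test over all genes (0 of 6 at an adjusted p under 0.05, where 0.0303% of 13219 genes passed in either direction, 0.0151% up and 0.0151% down). Lcn11 and Obp1a had an unadjusted p under 0.05, 2 of 6 against 4.58% of all genes, and both were lower, against 2.58%. Of the 6 genes, 5 had a negative log2 difference, all but Lcn3, and 4 a lower mean signal, since Lcn4 was lower only as the mean of log2 values. The median log2 difference was -0.11 over the 6 genes against 0.0001 over all genes tested. Obp1a, Lcn11 and Mup5, 3 of 6, had all Harlequin arrays below all control arrays, where 5.34% of genes did so, and 0 of 6 had them above, where 5.02% did (10.4% in either direction). The share that lay lower was 5.8% of the 1414 genes read by the brightest 5% of probe sets, and 9 of the 100 brightest genes, which include these 3. In RNA from a whole tissue, fewer cells of a type and less RNA per cell cannot be told apart.

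Obp1a encodes an odorant-binding protein of nasal gland secretions, and its probe set is 1453644_at. Its signal was 23439.8, 23746.5 and 23910.2 in the Harlequin mice and 25309.3, 26508.7 and 25528.1 in the controls. The highest Harlequin mouse thus read below the lowest control, and the Harlequin mean, 23699 ± 239 (SD, n = 3), was 8.08% below the control mean, 25782 ± 639 (SD, n = 3). The log2 difference was -0.12 (SE 0.05, 95% interval -0.24 to -0.004, limma adjusted p = 0.981). The exact two-sided permutation test gave p = 0.1, which is the smallest value that 3 against 3 arrays allow. After quantile normalization the difference was -0.04 and the genotypes overlapped, and after median scaling it was -0.09 with overlap.

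Obp2a, also named Lcn13 in RefSeq, encodes a second odorant-binding protein and was read by 1428022_at. Its signal was 21649.0, 23474.6 and 24492.5 in Harlequin and 23765.6, 25928.7 and 25216.9 in controls. One Harlequin mouse, replicate 3, lay above the lowest control, so the groups overlapped. The means were 23205 ± 1441 and 24970 ± 1102 (SD, n = 3), and the log2 difference was -0.11 (SE 0.07, 95% interval -0.26 to 0.05, limma adjusted p = 0.981). The exact permutation p was 0.2. After quantile normalization the difference was -0.04.

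Lcn11, a lipocalin gene next to Lcn3, had the largest difference of the 6 in percent of the control mean. Its probe set, 1444322_at, read 19257.2, 19929.0 and 17910.8 in Harlequin and 21431.5, 23137.2 and 24317.1 in controls. Every Harlequin mouse lay below every control, with Harlequin at 82.9% of the control mean. The log2 difference was -0.27 (SE 0.07, 95% interval -0.43 to -0.11), which did not pass over all genes (unadjusted p = 0.00448, limma adjusted p = 0.981, exact permutation p = 0.1). The genotypes also stayed apart under quantile, median, bright and cyclic loess scaling, with differences of -0.24, -0.24, -0.27 and -0.26. Leaving out any 1 array gave -0.32 to -0.23.

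Mup5, a major urinary protein gene, was read by 1426166_at. It gave 22267.9, 24909.8 and 23733.3 in Harlequin and 25479.8, 25646.7 and 24965.1 in controls. The gap between the genotypes was narrow, since Harlequin replicate 2 lay just below control replicate 3. The means were 23637 ± 1324 and 25364 ± 355 (SD, n = 3), and the log2 difference was -0.10 (SE 0.06, 95% interval -0.24 to 0.03, limma adjusted p = 0.981, exact permutation p = 0.1). After quantile normalization it was -0.02, and the genotypes overlapped there as well as under median and cyclic loess scaling. RefSeq lists 22 protein-coding Mup genes, all on chromosome 4, of which 3 have a probe set of their own name here. Probe sequences were not used here, so signal from near-identical Mup genes cannot be separated from Mup5, and the same holds for Obp1b beside Obp1a and Obp2b beside Obp2a.

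**Figure D1:**
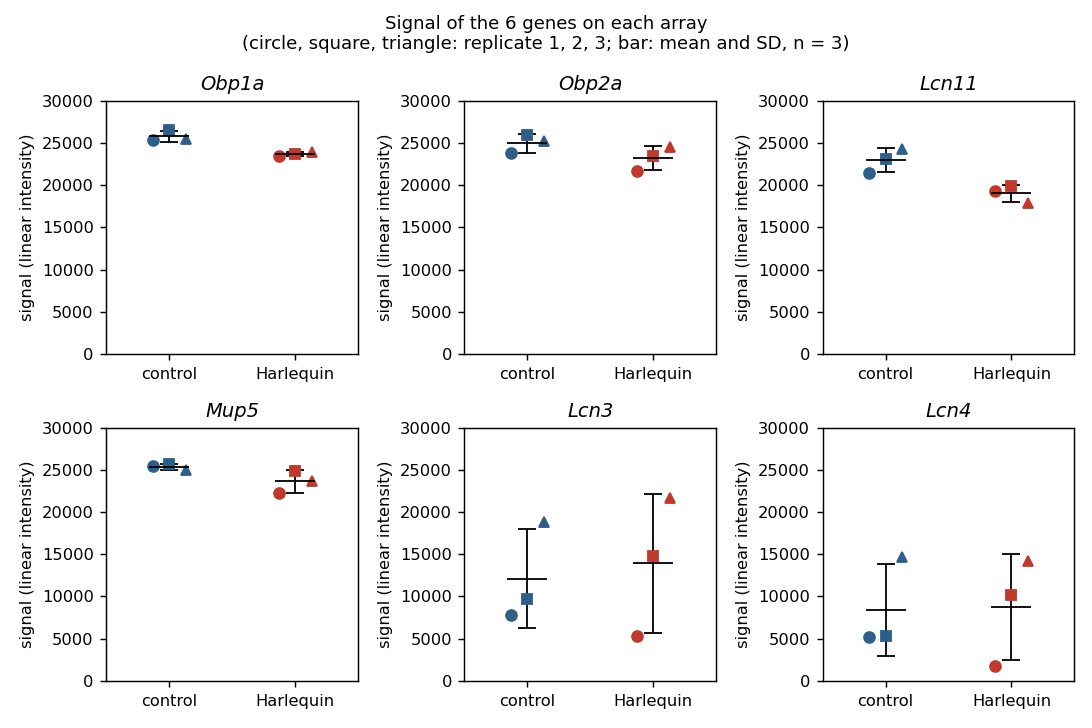
Linear probe set signal of each gene on the control (blue) and Harlequin (red) arrays, with circle, square and triangle for replicates 1, 2 and 3, and the horizontal mark and bar for mean and SD (n = 3). Obp1a, Obp2a, Lcn11 and Mup5 stay between 17910.8 and 26508.7 on all arrays, while Lcn3 spans 5285.5 to 21717.4 and Lcn4 1812.7 to 14716.2 with both genotypes overlapping.

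These 4 genes also sat near the top of the signal range. Obp1a ranked 7, Mup5 9, Obp2a 11 and Lcn11 32 among 45037 probe sets by mean signal, a rank that also depends on how strongly each probe set responds. Obp1a reached 80.1% to 85.3% of the brightest probe set on the same array, and Lcn11 62.3% to 81.3%. The deposited values carry no saturation flag, and whether such bright signals were compressed was not tested. Their spread between mice of 1 genotype was small, with a residual log2 SD of 0.027 for Obp1a, 0.059 for Mup5, 0.078 for Obp2a and 0.085 for Lcn11. The median over all genes was 0.179, and over the 100 brightest genes 0.069. The median log2 difference of those 100 genes was -0.01, and 58 of them had a negative difference.

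**Figure D2:**
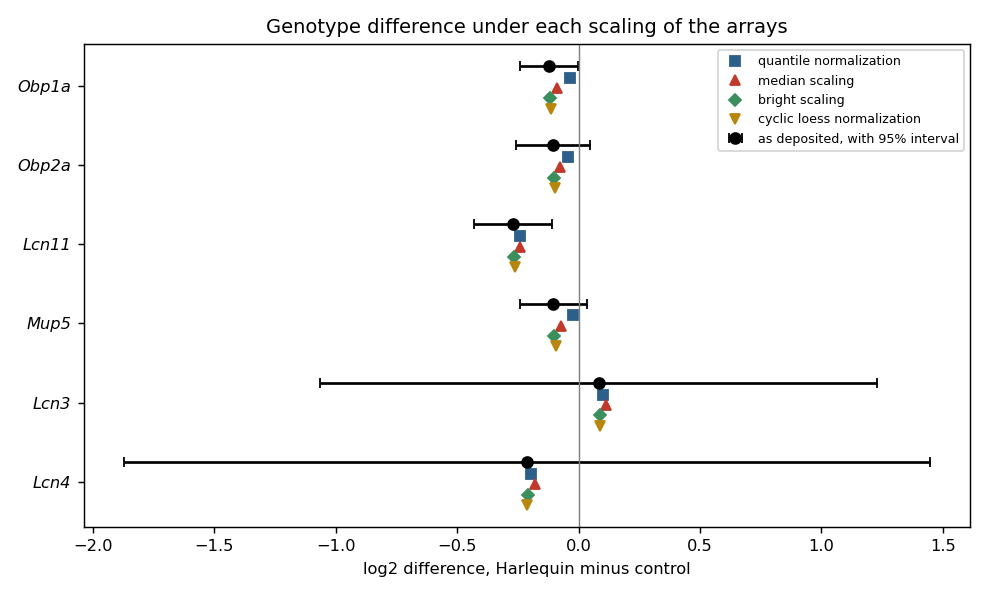
Log2 difference, Harlequin minus control, for each gene as deposited (black, with the 95% interval from limma) and after 4 other scalings of the arrays (coloured symbols without intervals). Lcn11 stays between -0.27 and -0.24, while Obp1a, Obp2a and Mup5 move to -0.04, -0.04 and -0.02 after quantile normalization. The intervals of Obp2a, Mup5, Lcn3 and Lcn4 span both signs, and those of Lcn3 and Lcn4 are the widest.

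Lcn3 and Lcn4 behaved differently. They encode the vomeronasal secretory lipocalins, named Vnsp1 and Vnsp2 in RefSeq, which are known from glands of the vomeronasal organ and nasal septum and are thought to carry pheromones. Lcn3, read by 1422306_at, gave 5285.5, 14804.1 and 21717.4 in Harlequin and 7789.5, 9742.6 and 18820.4 in controls. Lcn4, read by 1422304_at, gave 1812.7, 10212.2 and 14143.8 in Harlequin and 5189.3, 5345.6 and 14716.2 in controls. For both genes Harlequin replicate 1 was the lowest of the 6 mice, and Harlequin replicate 3 and control replicate 3 were the highest 2. Between the lowest and the highest mouse Lcn3 signal differed 4.11-fold and Lcn4 signal 8.12-fold.

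The genotype means of Lcn3 were 13936 ± 8250 in Harlequin and 12117.5 ± 5886 in controls (SD, n = 3), with a log2 difference of 0.08 (SE 0.50, limma adjusted p = 0.997, exact permutation p = 0.9). Its 95% interval, -1.06 to 1.23, allows Harlequin to be anywhere from 0.478-fold to 2.35-fold of control. The means of Lcn4 were 8723 ± 6299 and 8417 ± 5456 (SD, n = 3), slightly higher in Harlequin, while the mean of log2 values was lower there, with a difference of -0.21 (SE 0.72, limma adjusted p = 0.995, exact permutation p = 0.8). Its interval, -1.87 to 1.45, is wider still, and its sign turned to 0.17 with array weights. Leaving out Harlequin replicate 1 moved Lcn3 to 0.67 and Lcn4 to 0.69, and leaving out Harlequin replicate 3 moved them to -0.35 and -0.78. Leaving out control replicate 3 moved them to 0.45 and 0.28. A change of either gene with the mutation was not detectable against this spread between mice, and 99.7% of the sum of squares of Lcn3 and 99% of that of Lcn4 lay within the genotypes.

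The residual log2 SD was 0.879 for Lcn3 and 1.27 for Lcn4. These values ranked 115 and 29 among 13219 genes in descending order, and 7 and 3 among the 1414 genes read by the brightest 5% of probe sets. For comparison, Obp1a ranked 13181 of 13219, and 1397 among those 1414 bright genes. Mup5, Obp2a and Lcn11 ranked 1213, 1036 and 955 among the same 1414. Obp1a was thus among the steadiest bright signals in this tissue, and Lcn3 and Lcn4 were among the most variable.

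**Figure D3:**
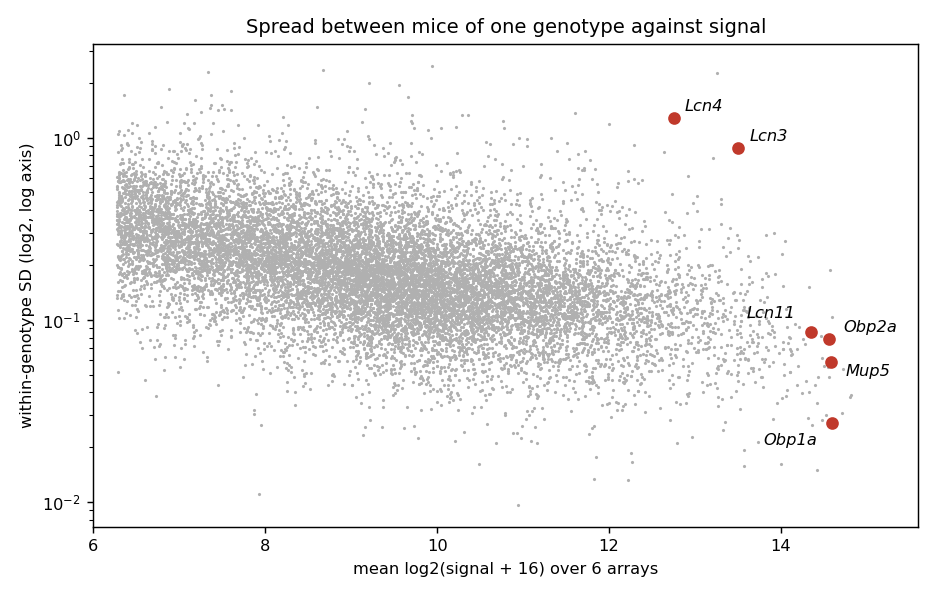
Residual SD between mice of 1 genotype (log2 units, log axis) against mean log2(signal + 16) for 13219 genes (grey) with the 6 genes in red. Lcn4 at 1.27 and Lcn3 at 0.879 lie at the top of the cloud for bright genes, and Obp1a at 0.027 lies at the bottom.

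Lcn3 and Lcn4 placed the 6 mice in nearly the same order. Pearson's r of their log2 values was 0.974 (exact permutation p = 0.00556) and Spearman's rho 0.943 (exact permutation p = 0.0167). Adjusted by Benjamini-Hochberg over all 21 pairs of the 7 probe sets these permutation p-values were 0.0583 and 0.117, so the relation did not pass over the whole family. Without the 2 arrays farthest from the median of Lcn3, both Harlequin, r was 0.978 over the remaining 4. After each genotype's mean was subtracted it was 0.987, and leaving out any 1 array gave 0.968 to 0.991. The second Lcn4 probe set, 1442380_at, read 45.9, 97.0 and 221.0 in Harlequin and 86.9, 79.1 and 284.4 in controls. It placed the same mice at the bottom and the top, with r = 0.903 (exact permutation p = 0.00556) to the brighter Lcn4 probe set and r = 0.906 (exact permutation p = 0.0139) to Lcn3, with permutation p-values adjusted over the 21 pairs of 0.0583 and 0.0972. Spearman's rho was 0.943 and 0.886 for these relations (exact permutation p = 0.0167 and 0.0333, adjusted 0.117 and 0.14), and without the 2 arrays farthest from the median r was 0.857 and 0.798. Its own genotype difference was -0.28 (95% interval -1.52 to 0.97).

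As a description over the same 6 arrays, r with Lcn3 was 0.594 for Obp2a, 0.305 for Mup5, 0.038 for Obp1a and 0.005 for Lcn11. Obp2a came nearer to Lcn3 once the genotype means were subtracted, at 0.823. Obp1a and Obp2a had r = 0.803, or 0.765 with genotype means subtracted, whereas Obp1a and Lcn11, at 0.847, fell to 0.077 with genotype means subtracted. The values of 1 array share its scaling, which these correlations contain.

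**Figure D4:**
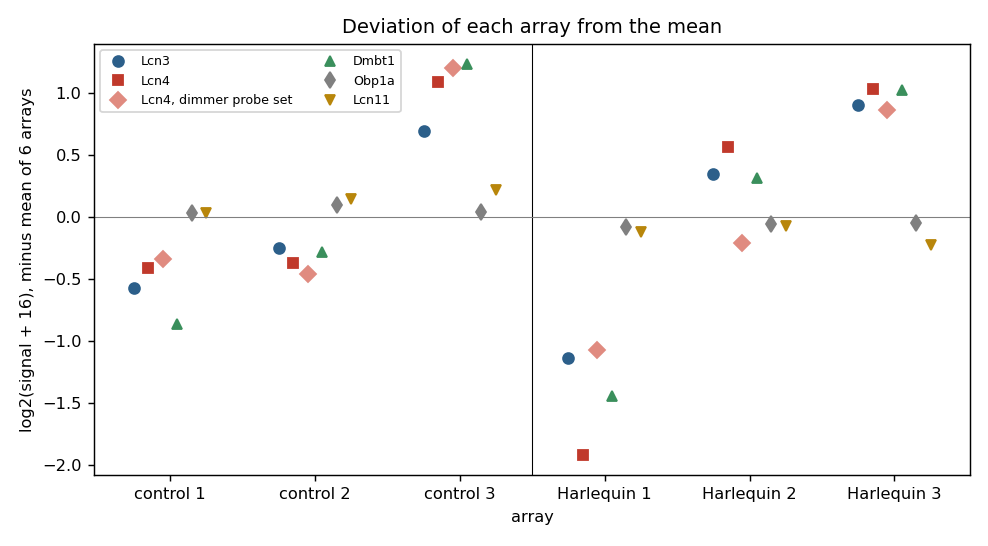
Log2(signal + 16) of 6 probe sets on each array after subtraction of the mean over the 6 arrays, with controls left of the line and Harlequin right of it. Lcn3, both Lcn4 probe sets and Dmbt1 are lowest on Harlequin replicate 1 and high on control replicate 3 and Harlequin replicate 3, while Obp1a spans 0.18 and Lcn11 0.44 over all arrays.

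Among 27 other secretory products of nasal glands that passed the filter, 1 followed Lcn3 and Lcn4 with r above 0.9 to their mean, where 1.04% of 13213 genes did. It was Dmbt1, a mucin-like scavenger glycoprotein of mucosal surfaces, which was named after its values were seen. Dmbt1 read 1491.3, 5079.4 and 8304.9 in Harlequin and 2235.8, 3357.3 and 9645.0 in controls, with r = 0.985 to Lcn3 and 0.960 to Lcn4. Its genotype difference was -0.07 (limma adjusted p = 0.998), turning to 0.28 with array weights. Tff2, a trefoil peptide of mucus, ran the opposite way, with r = -0.976 to Lcn3 and -0.946 to Lcn4, and read 1362.0, 784.0 and 474.7 in Harlequin and 1017.8, 955.0 and 524.4 in controls. Bpifb1, Muc5ac and Pigr also had negative r, from -0.806 to -0.760 with Lcn3. Bpifb9b, a secreted protein of the BPI fold family also named after its values were seen, read 426.3 on Harlequin replicate 1 and 18822.2 to 19250.9 on the other Harlequin arrays, but its highest value, 29626.1, was on control replicate 1.

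By the likeness rule, the genes closest to each of the 6 over the 6 arrays were named, with no test, since 21 to 40 genes exceeded r = 0.95 for each. Closest to Lcn3 were Ulk3, a kinase (r = 0.995), Fgd1, a guanine nucleotide exchange factor (0.990), and Zfp704, a zinc finger gene (0.989). Closest to Lcn4 were Tob2 (0.990), Acpp, which encodes prostatic acid phosphatase (0.985), and Fam214a (0.985). Closest to Obp2a were the apoptosis regulator Cflar (0.996), Ltbp3 (0.988) and 2210039B01Rik (0.983). For Mup5 they were Chml, Plscr2 and Fam72a (0.990, 0.987 and 0.987), and for Lcn11 Spn, the actin-binding thymosin Tmsb4x and G0s2 (0.990, 0.987 and 0.982). Pearson's r measures the shape of the pattern over the arrays and not its size. Ulk3 had a log2 range of 1.05 against 2.04 for Lcn3, whereas Cflar had 0.65 against 0.26 for Obp2a and Chml 0.57 against 0.20 for Mup5.

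The list for Obp1a held another odorant-binding gene. Atp1b2, a sodium pump subunit, came first (r = 0.992), then 5430402E10Rik (0.987) and the glial calcium-binding protein S100b (0.987). RefSeq gives 5430402E10Rik the synonym OBP2 and places it on chromosome X with 0 protein-coding genes between it and Obp1a. It read 26316.3, 27186.5 and 26664.5 in Harlequin and 30140.5, 31786.1 and 29911.2 in controls. All Harlequin mice lay below all controls, with a mean 12.7% lower, and the log2 difference was -0.20 (SE 0.05, 95% interval -0.32 to -0.08, limma adjusted p = 0.981, exact permutation p = 0.1). It was named for its correlation with Obp1a over the same arrays, and Obp1a already separated the genotypes, so its separation and genotype difference are no independent evidence. With genotype means subtracted its r with Obp1a was 0.888. Over the alternatives its difference was -0.21 to -0.11.

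Related genes of the family were mostly dim or without a clear difference. Of 23 other listed lipocalin names, which include Lcn13, the other name of Obp2a, 14 were on the array and 6 passed the filter. Of these 6, 0 were called by limma adjusted p and 0 had an unadjusted p under 0.05. Their median log2 difference was 0.09. Lcn2, an iron-siderophore-binding lipocalin of neutrophils and epithelia, ranged from 5301.7 to 11935.7 and overlapped (0.06, and -0.25 to 0.34 with 1 array left out). Apod, a lipid-binding lipocalin, ranged from 12099.9 to 15675.1 (-0.03, turning to 0.0036 with median scaling and 0.032 when its probe sets were averaged), and Ptgds, prostaglandin D synthase, from 4567.1 to 6383.9 (-0.04, or 0.12 when its probe sets were averaged). Rbp4, the retinol carrier, differed by 0.32, the acute-phase Orm1 by 0.55 and C8g, a complement subunit, by 0.11. The lipocalins Lcn5, Lcn8, Lcn9, Lcn12 and Apom and the acute-phase or plasma genes Orm2, Orm3 and Ambp stayed below the filter, as did Mup3 and Mup10, the 2 of 20 other listed Mup genes on the array. Mup10 read 2.5 to 11.3 in Harlequin and 42.4 to 70.2 in controls, and Apom 9.6 to 19.2 against 23.9 to 64.3. These signals are too dim to be read as levels.

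Most of the other listed secretory products of the glands had a negative difference. This list, like the other lists here, was chosen with earlier results of these data known. Its counts and sums are therefore description and no independent evidence. Of 42 listed, 34 were on the array and 27 passed the filter, with 22 lower, 5 higher, a median log2 difference of -0.35 and 1 called. At an unadjusted p under 0.05 there were 5 of 27, all lower (2.58% of all genes), and 4 had no overlap (5.34% of all genes). The called gene was Azgp1, zinc-alpha-2-glycoprotein, at 554.3 to 747.3 in Harlequin against 1673.3 to 1978.9 (limma adjusted p = 0.0243). Chil4, a chitinase-like protein (-3.06), Pip, a prolactin-induced secretory protein (-1.78), and Wfdc18, a small WAP-domain protein (-0.63), had no overlap either and did not pass (limma adjusted p of 0.924 or more). Chil4 was -2.03 without Harlequin replicate 3 and -3.91 without Harlequin replicate 2. Pip was -1.36 and -2.34 without the same arrays, and -1.16 when its probe sets were averaged. The call of Azgp1 was not kept without an intensity trend, with a replicate block or without any 1 of 5 arrays, all but Harlequin replicate 3. Summed over the 34 genes, signal reached 157453 to 169070 on the Harlequin arrays against 183774 to 193983 on the control arrays. A sum of this kind rests on its brightest probe sets, and Chil4, Bpifb9b and Wfdc18 had the largest differences in mean signal within it. The part of these glands in the lower signals of Obp1a, Lcn11 and Mup5 was not tested.

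Of 15 genes of gland cell identity, 12 were lower and 3 higher, with 0 called by limma adjusted p and a median of -0.16. An unadjusted p under 0.05 was found for 2 of 15, both lower (2.58% of all genes). The same 2 had no overlap (5.34% of all genes). Bhlha15, a transcription factor of secretory cells, read 193.3 to 255.2 in Harlequin and 302.1 to 507.7 in controls (-0.72), and Foxc1, a transcription factor, 406.8 to 596.2 against 623.3 to 691.3 (-0.41). When probe sets were averaged Bhlha15 was -0.36 and Foxc1 -0.27, and without Harlequin replicate 1 Foxc1 was also -0.27. The water channel Aqp5 of gland acini differed by 0.07 with overlap. Whether fewer gland cells were in the Harlequin dissections was not tested.

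Of 26 listed odorant-metabolising enzymes, 19 passed the filter, 12 higher and 7 lower, with a median of 0.05, 0 called by limma adjusted p and 0 at an unadjusted p under 0.05. Cyp2g1, Cyp2f2 and Cbr2, also near the top of the signal range, differed by 0.01, 0.01 and -0.01. Other bright enzymes of the list moved more. Sult1c1, at 21603.5 to 24319, differed by -0.05, and Gstm1, at 10995.6 to 18128.4, by 0.30, both with overlap. Of 7 listed uptake receptors and adaptors for lipocalins, 5 passed the filter, with 0 called and 0 at an unadjusted p under 0.05. Among them Lrp2, the endocytic receptor megalin, differed by -0.01 and Lmbr1l, a lipocalin receptor, by 0.12.

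Markers of other tissues that could enter the dissection were read beside these genes. Of 18 listed vomeronasal neuron genes, 6 passed the filter, and the 14 on the array summed to 14921.8 to 15621.9 on Harlequin arrays against 13228.9 to 17139.3 on control arrays. Most of that sum was Cnga4, at 7386.5 to 10807.2, a channel subunit that mature olfactory neurons share, so the sum does not measure vomeronasal tissue. The channel Trpc2, listed here for vomeronasal neurons and not for their glands, read 112.1 to 146.4 (r = -0.04 with Lcn3 and -0.17 with Lcn4). That is near the median signal of the arrays, 107.9 to 119.7, so it says little about vomeronasal tissue. Vmn1r45 read 0.6 to 17.3. Of 18 listed ciliated respiratory genes, 14 passed, and the 15 on the array summed to 24726.9 to 37112.3 in Harlequin and 28785.1 to 32897.0 in controls. Harlequin replicate 1, the mouse lowest in Lcn3 and Lcn4, had the highest mean deviation of the ciliated genes, 0.34, followed by control replicate 3 at 0.20, and over the 6 arrays that deviation had r = -0.57 with the mean of Lcn3 and Lcn4. Of 12 respiratory secretory and goblet cell genes 8 passed, all 8 with a negative difference (median -0.19) and 0 called. At an unadjusted p under 0.05 there were 2 of 8, both lower (2.58% of all genes), and 1 had no overlap (5.34% of all genes). This list is not separate from the glands: Bpifa1, Muc5ac, Reg3g and Pigr are also gland products above, and Spdef is also a gland identity gene. All 12 summed to 42466.2 to 57216.1 in Harlequin and 47826.6 to 51933.1 in controls. The mean deviation of the 8 that passed was again highest on Harlequin replicate 1, at 0.41, followed by control replicate 3 at 0.36. It had r = -0.59 to the mean of Lcn3 and Lcn4. Of 16 salivary and lacrimal gland genes 6 passed, 5 lower and 1 higher, with a median of -0.64 and 0 called. Of these 6, 1 was lower at an unadjusted p under 0.05 (2.58% of all genes) and 1 had no overlap (5.34%). Bpifa2, Car6 and Pip, which passed, are also among the gland products above. The 11 on the array summed to 4172.2 to 8520.5 in Harlequin and 6925.2 to 14932.2 in controls, with Amy1 at 120.9 to 303.7. Of 16 liver genes 1, Rbp4, passed, and albumin read 41.3 to 98.3. The part of these tissues in the values of Lcn3 and Lcn4 was not tested.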

How the data were processed

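The authors deposited linear probe set intensity values, 45101 per array, between 0.1 and 31786.1 and scaled so that the mean without the lowest and highest 2% is 500 on every array. Biotinylated cRNA came from 3 µg of total RNA, per the labels' protocols, and the software behind the signals is not given in the sources used here. Control probe sets, 64 in number, were dropped. Of the others, 34945 name 1 gene, 932 several and 9160 none here, and 0 symbols changed against RefSeq identifiers. Each gene was represented by its brightest probe set, and 13219 genes above the 40th percentile were tested as log2(value + 16), a scale on which low signals show smaller changes, in limma 3.58.1 (R 4.3.3) with an intensity trend, 3 against 3 arrays, two-sided, with Benjamini-Hochberg adjustment over all genes. Genes under an adjusted p of 0.05 are called. The second Lcn4 probe set came from the fit over every probe set above the filter. Genes below the filter are given by signal only. Summaries used Python 3.11.15. Bright scaling equalises the median log2 value of the brightest 5% of probe sets. Alternatives were other pseudocounts (1 and 64), filters, scalings, moderation, array weights, probe set choices, a replicate block and each array left out. In 10 simulated data sets of 13219 genes for this comparison, each with 200 changed genes, 68.2% of genes changed by a log2 of 1 were called, and 4.77% of calls were false.

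The members and gene lists were chosen with earlier results of these data known. The rule for named genes took all members, measured lipocalins and Mup genes, up to 4 genes of smallest p per list, and 3 genes per member by Pearson's r. Not all are described. Dmbt1, Tff2, Bpifb1, Muc5ac, Pigr, Bpifb9b, Aqp5, Cnga4, Cyp2g1, Cyp2f2, Cbr2, Sult1c1, Amy1, Vmn1r45 and albumin were named after their values were seen.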

Additional observations from a re-analysis of the deposited data

How the results depend on the processing

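Over 21 alternative settings, 0 of the 6 genes passed limma's adjusted threshold, and 1 or 2 had an unadjusted p under 0.05. Obp1a, Obp2a, Lcn11 and Mup5 kept their direction in all 21, at -0.13 to -0.04, -0.15 to -0.04, -0.32 to -0.23 and -0.14 to -0.02. The number of members with no overlap, lower in Harlequin, was 3 as deposited, where 5.34% of all genes did so. It was 1 after quantile normalization (5.26% of all genes) and 1 after median scaling (3.75%). It was 3 after bright scaling (5.07%) and 2 after cyclic loess normalization (5.21%). With 1 array left out it was 3 to 4, but fewer arrays separate more easily, and the share of all genes was not computed there. The number of genes called among all genes was 4, but 0 without an intensity trend, 0 with the replicate block and 0 to 3 with 1 array left out. With every probe set tested on its own, 7 probe sets were called, which is a count of probe sets and not of genes. Deviations of same-numbered arrays from their genotype means correlated at -0.24, -0.03 and 0.06 over all genes tested. Differently numbered arrays were not compared, so these values do not settle whether the replicate numbers pair the mice. Lcn3, Lcn4 and Dmbt1 rose from replicate 1 to replicate 3 in both genotypes. The replicate block left 0 members called. Lcn4 turned to 0.17 and Dmbt1 to 0.28 with array weights, Apod to 0.0036 with median scaling and to 0.032 as the mean over probe sets, and Ptgds to 0.12 as that mean. With 1 array left out, Lcn3 ranged from -0.35 to 0.67, Lcn4 from -0.78 to 0.69, Dmbt1 from -0.60 to 0.64, Lcn2 from -0.25 to 0.34, Apod from -0.14 to 0.043, Ptgds from -0.15 to 0.088, Orm1 from -0.015 to 1.24 and C8g from -0.082 to 0.31. The cause of these shifts was not tested. Median scaling shifted the median of all genes by 0.03 on the log2 scale, and the other scalings by less.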
